A study of Rattus norvegicus with 37 samples.

Results

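Livers of rats with a contused spinal cord kept in tiny cages were compared with livers of uninjured rats kept in standard cages. These 10 samples, 5 per group, are 10 of the 37 liver RNA-seq samples of the study and were chosen by their titles, which place them in the SCI + In-Cage Activity set as contusion with a tiny cage (CONT SCI + Tiny) and as no SCI with a standard cage (No SCI + Standard). All were female Sprague Dawley rats of 235 to 249 g, given as about 8 to 9 weeks old at the start. CONT SCI + Tiny rats had a laminectomy at the second thoracic vertebra and a 25 g-cm contusion there with the NYU Impactor, received anaesthesia, gentamicin and buprenorphine around it, moved to tiny cages that restrict movement and were sampled 11.5 weeks after injury. No SCI + Standard rats stayed in standard cages and were sampled at a time equivalent to 11.5 weeks. No sham operation is described for them.

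Injury, surgery, drugs and cage size change together between these groups, so their shares in any difference cannot be told apart from this pair. Rats of a group were housed in pairs and cage mates are not identified, so rats of 1 cage may not be independent.

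A contusion bruises the cord and leaves part of it intact, and an injury high in the thoracic cord lies above most of the outflow of sympathetic nerves, including the fibres that reach the liver. The liver makes most plasma proteins, handles fat and sugar and clears drugs and hormones. Whole liver RNA mixes hepatocytes with sinusoidal, immune and bile duct cells, so fewer cells of a type and less RNA per cell cannot be told apart.

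Counts are listed under 24613 Ensembl rat gene identifiers with no names beside them, and the gene table used here holds no Ensembl identifiers through which to look up their symbols. Genes are therefore described by their levels and changes, and no function, pathway or cell type is assigned. For the same reason the tissue label was not checked against liver markers.

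Each CONT SCI + Tiny library held 20066978 to 25130252 reads on genes and each No SCI + Standard library 20581132 to 23933922 (two-sided exact permutation test over all relabellings, p = 0.325). Genes with at least 1 count numbered 14746 to 15064 (median 14946) in CONT SCI + Tiny and 14696 to 14881 (median 14741) in No SCI + Standard (exact permutation p = 0.0397, 0.159 after Benjamini-Hochberg adjustment over 4 library measures). The 10 most abundant genes took 26.1% to 30.1% of the counts in CONT SCI + Tiny and 24.6% to 32.3% in No SCI + Standard, highest in No SCI + Standard replicate 1. That library also had the lowest scaling factor, 0.886. Whether these library measures have a part in the differences described next was not tested.

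Of 11859 genes with enough counts to test, 1479 (12.5%) differed between the groups at a Benjamini-Hochberg adjusted p under 0.05 in edgeR's quasi-likelihood test. The genes higher in CONT SCI + Tiny were 644 (5.43%) and the lower ones 835 (7.04%). The adjusted p values lay close below the threshold, with 484 genes under 0.03 (180 higher, 304 lower), 42 under 0.02 and 1 under 0.01. At an unadjusted p under 0.05 there were 4068 genes (34.3%), 1952 higher and 2116 lower. Over all 11859 genes the median log2 fold change was -0.0036 and 49.7% of genes were higher.

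Most changes were small. Genes called higher had a median fold of 1.60 with quartiles of 1.47 and 1.81, and genes called lower had a median fold of 1.57 with quartiles of 1.44 and 1.78. Of all called genes, 494 (33.4%) changed by less than 1.5-fold. More than 2-fold changes were found for 77 of the 644 higher genes and for 109 of the 835 lower genes, and more than 4-fold changes for 8 and 1. The size of the largest called change was 4.80 on the log2 scale among the higher genes and 2.21 among the lower ones. When edgeR's glmTreat test asked for a change beyond 1.1-fold, 516 genes passed (197 higher, 319 lower), and beyond 1.2-fold 5 passed.

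Calls were spread over nearly the whole range of expression. The tested genes were split into 5 equal classes by normalized CPM, each gene's count relative to the scaled library total, with no correction for gene length. From the lowest class to the highest, 4.38%, 11.4%, 16.3%, 14.8% and 15.5% of genes were called. The median standard error of the log2 fold change fell over the same classes from 0.29 to 0.13. The share of calls that were lower was 51.0% in the lowest class and 63.8% in the highest, where 133 genes were higher and 234 lower. The called genes therefore covered abundant transcripts as well as rare ones, which the plot of change against mean count shows.

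**Figure D1:**
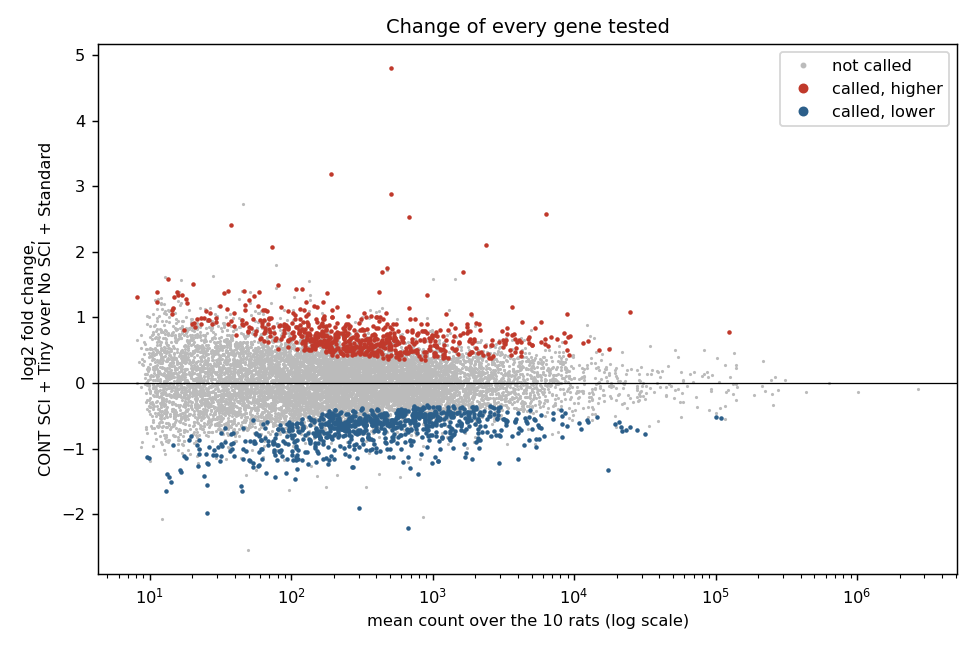
Log2 fold change of CONT SCI + Tiny over No SCI + Standard (vertical axis) against the mean count over the 10 rats (horizontal axis, log scale) for 11859 genes, 1 point each. Red points are the 644 genes called higher and blue points the 835 called lower at an adjusted p under 0.05, most of them within 1 log2 unit of no change.

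Shares of the scaled library total were summed from normalized CPM and are not shares of the raw counts. The 644 higher genes took 3.48% to 4.33% in CONT SCI + Tiny and 1.73% to 3.05% in No SCI + Standard. The 835 lower genes took 3.51% to 4.18% and 5.03% to 7.37%. The genes were chosen on these libraries, so these shares are a description after scaling and no test.

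Separation of the groups rat by rat was less frequent than the calls. The normalized CPM of the groups did not overlap for 928 genes (7.83% of those tested), 438 higher and 490 lower in CONT SCI + Tiny. Of the 1479 called genes, 696 (47.1%) were without overlap, 319 higher and 377 lower. In the other called genes at least 1 rat lay within the range of the other group.

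Some genes, all of low count, were counted in 1 group and not in the other. The pair had counts for 17181 genes. Counts were present in at least 1 CONT SCI + Tiny rat and in no No SCI + Standard rat for 745 of these. The reverse held for 564. The part of library depth in these numbers was not tested. Of the 745, 2 had counts in all 5 CONT SCI + Tiny rats, and of the 564, none had counts in all 5 No SCI + Standard rats. The largest sum of counts of a gene was 81 among the 745 and 16 among the 564. None passed the filter on counts, so none was tested.

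Of the called genes, 4 are given by identifier. In each direction they have the smallest p among called genes whose groups do not overlap and whose mean count is 100 or more. ENSRNOG00000010588 measured 39.7, 41.6, 31.7, 45.6 and 43.2 CPM in CONT SCI + Tiny replicates 1 to 5 and 21.5, 17.2, 20.5, 15.2 and 16.8 CPM in No SCI + Standard replicates 1 to 5. All injured rats lay above all uninjured rats, with means of 40.4 ± 5.30 and 18.2 ± 2.66 CPM (SD, n = 5 each). Its log2 fold change was 1.15 (SE 0.13, adjusted p = 0.00546 in edgeR's quasi-likelihood test).

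ENSRNOG00000018287 was the more abundant of the higher genes. Its CPM was 479.8, 496.4, 622.2, 514.9 and 461.2 in CONT SCI + Tiny and 318.8, 298.3, 228.4, 194.3 and 201.2 in No SCI + Standard. The lowest injured rat stood well above the highest uninjured one. Means were 514.9 ± 63.2 and 248.2 ± 57.0 CPM (SD, n = 5 each), a log2 fold change of 1.05 (SE 0.16, edgeR adjusted p = 0.0155).

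Among the lower genes, ENSRNOG00000019996 measured 20.4, 15.0, 18.5, 16.7 and 18 CPM in CONT SCI + Tiny and 29.4, 36.1, 45.5, 41.3 and 64.3 CPM in No SCI + Standard. The injured rats were closely grouped, while the uninjured rats spread widely between replicate 1, the lowest, and replicate 5, the highest. Means were 17.7 ± 2.06 and 43.3 ± 13.2 CPM (SD, n = 5 each), and the log2 fold change was -1.29 (SE 0.18, edgeR adjusted p = 0.014).

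ENSRNOG00000009152 measured 62.1, 60.4, 58.7, 73.7 and 69.7 CPM in CONT SCI + Tiny and 89.9, 120.2, 133.3, 124.7 and 123.3 CPM in No SCI + Standard. No SCI + Standard replicate 1 was again the uninjured rat nearest to the injured group. Means were 64.9 ± 6.46 and 118.3 ± 16.6 CPM (SD, n = 5 each), with a log2 fold change of -0.87 (SE 0.12, edgeR adjusted p = 0.014).

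**Figure D2:**
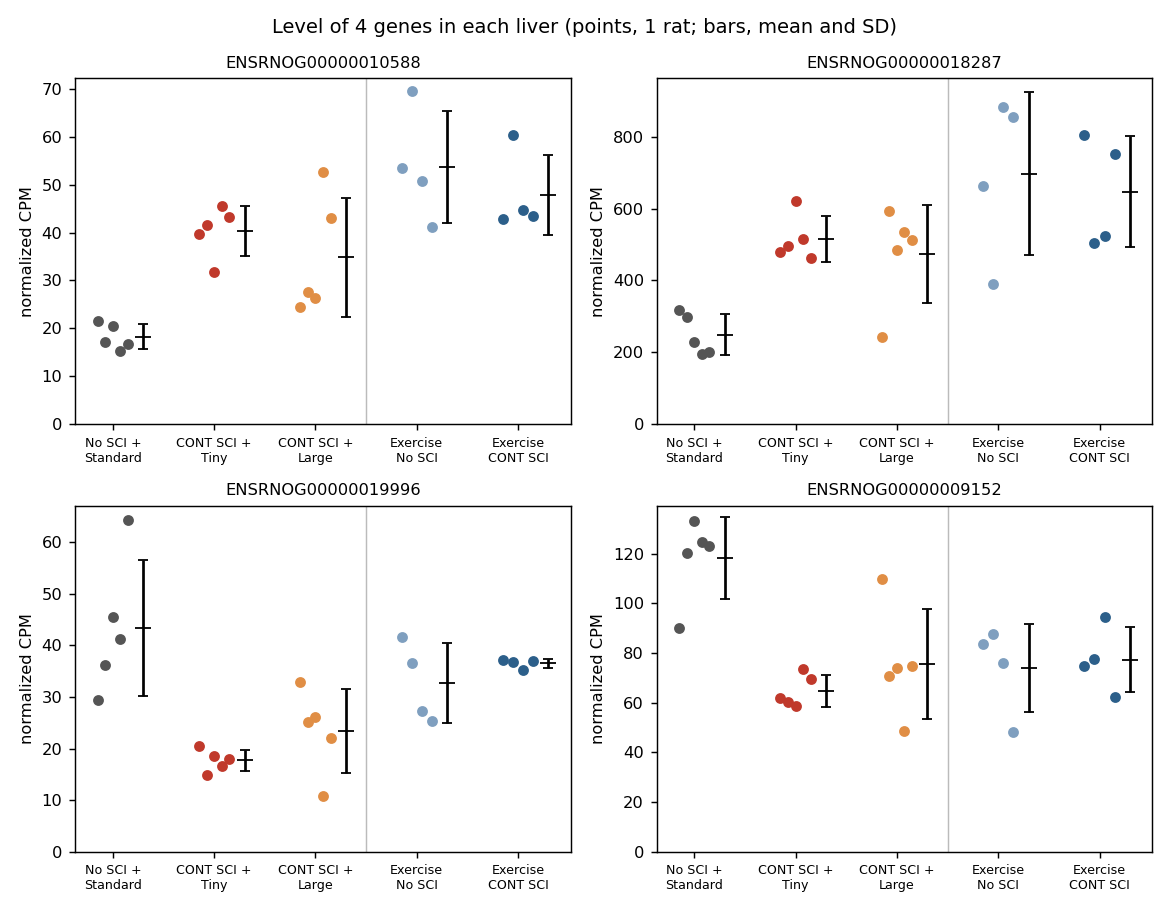
Normalized CPM (vertical axis, from 0) of 4 genes in each liver, 1 point per rat, for 3 In-Cage groups of 5 and, right of the grey line and scaled separately, 2 Exercise set groups of 4. CONT SCI + Large was scaled with all In-Cage groups, and CONT SCI + Tiny and No SCI + Standard as a pair. Black marks and bars are the mean and SD, and the red CONT SCI + Tiny points do not overlap the grey No SCI + Standard points in any of the 4 genes.

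How far the calls rest on single rats was measured by refitting without each rat in turn. Without No SCI + Standard replicate 1 the count of called genes rose to 2998, and without No SCI + Standard replicate 4 it dropped to 15. Leaving out CONT SCI + Tiny replicates 1, 2, 3, 4 and 5 left 85, 793, 72, 1794 and 199 calls, and leaving out No SCI + Standard replicates 2, 3 and 5 left 692, 1148 and 125. Numbers at an unadjusted p under 0.05 moved far less, between 3074 and 4752. At an adjusted p under 0.1 the refits held between 1160 and 4220 genes, against 3207 with all 10 rats.

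All 1479 called genes kept their direction and an unadjusted p under 0.05 in each of the 10 refits, which share most of their rats with the full set. Between 1071 and 1479 of them had an adjusted p under 0.1, while 489 had an adjusted p under 0.05 in at least 5 refits. In all 10 refits 13 genes were called, 5 higher and 8 lower, with log2 fold changes of 0.65 to 1.57 in size. None of the 13 had overlapping groups, and the 4 genes given by identifier, which were chosen on these same rats, are among them. By DESeq2's test 959 genes were called in all 10 refits and by limma voom with sample weights 466. With the replicate number as a block, or with the CONT SCI + Large rats in the fit, there were 0. In a refit with the block, the rat that shares the left-out rat's number stands alone in its block and adds nothing to the comparison.

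**Figure D3:**
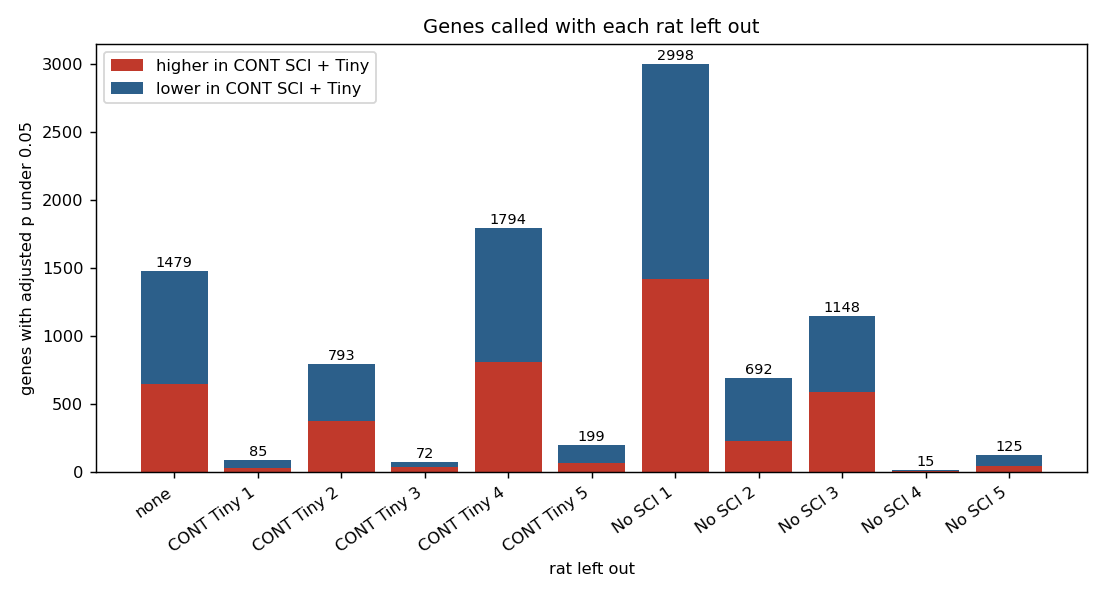
Number of genes with an adjusted p under 0.05 (vertical axis) with all 10 rats and with each rat left out (horizontal axis), split into genes higher (red) and lower (blue) in CONT SCI + Tiny. The totals run from 15 without No SCI replicate 4 to 2998 without No SCI replicate 1.

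Over all tested genes the groups stood apart. The share of squared Euclidean distance between the groups, on log2 CPM, was 29.6% (two-sided exact permutation test, p = 0.00794, the smallest that all relabellings of 5 against 5 allow). Mean distances were 53.4 log2 units within CONT SCI + Tiny, 58.3 within No SCI + Standard and 67.1 between the groups. The first principal component held 39.6% of the variance, and for 8 of the 10 rats the nearest rat was of the same group. The exceptions were CONT SCI + Tiny replicate 2, nearest to No SCI + Standard replicate 1, and No SCI + Standard replicate 1, nearest to CONT SCI + Tiny replicate 1.

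The uninjured group was the more variable. Its median SD of log2 CPM was 0.28 against 0.24 in CONT SCI + Tiny, and 61.8% of genes had the larger SD in No SCI + Standard. This difference in spread was not tested.

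Each rat was then placed by the 500 genes of smallest p in the fit of the other 9 rats, on a line from the mean of the other No SCI + Standard rats (0) to the mean of the other CONT SCI + Tiny rats (1). CONT SCI + Tiny replicates 1 to 5 stood at 0.83, 0.82, 0.90, 0.70 and 0.79, and No SCI + Standard replicates 1 to 5 at 0.67, 0.27, 0.24, 0.029 and -0.38. The injured rats were close together, and the uninjured rats ranged from almost the injured group to beyond the mean of their own. Injured rats were nearer to their own group in 63.3% to 90.2% of these genes and No SCI + Standard replicates 2 to 5 in 70.2% to 96.0%, but No SCI + Standard replicate 1 in 19.3%. Over all tested genes that share was 36.7% in No SCI + Standard replicate 1 and 53.4% to 78.1% in the other 9 rats.

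**Figure D4:**
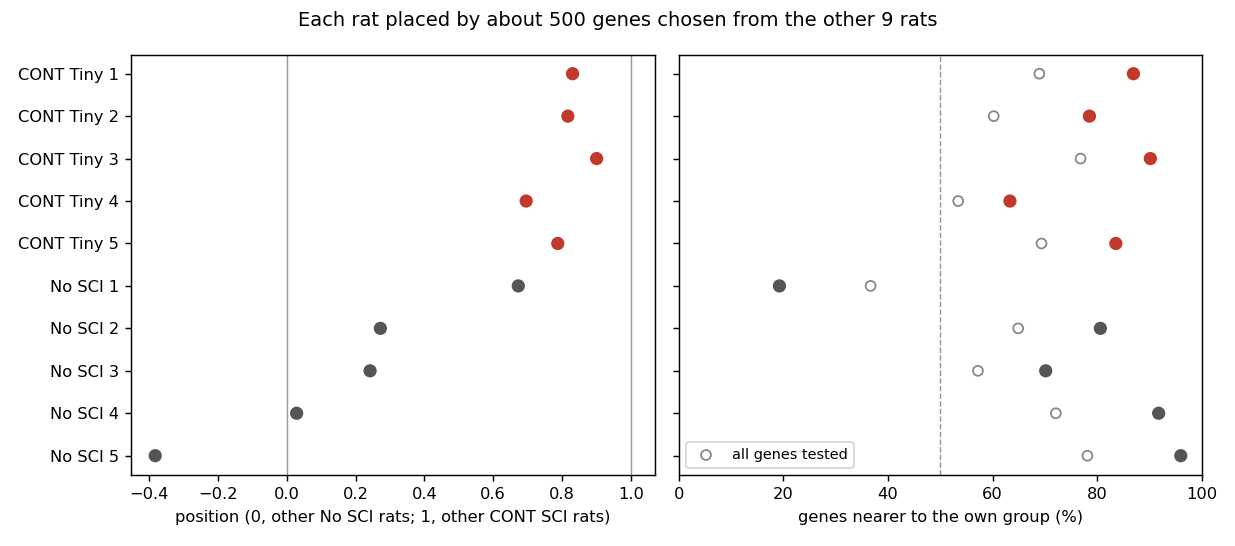
Left, position of each left-out rat between the means of the other No SCI rats (0) and the other CONT SCI + Tiny rats (1), with CONT SCI + Tiny in red and No SCI + Standard in grey. Right, percent of genes in which the rat lay nearer to its own group. Filled points are the 495 to 499 chosen genes and open points all tested genes. No SCI replicate 1 alone lies under the dashed line at 50%.

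Other groups of the study hold cage size or injury constant, though in none of them does injury change without surgery and drugs, and no rats of one injury state are compared between standard and other cages within a set. CONT SCI + Large rats had the same contusion and differ from CONT SCI + Tiny in cage size. Between these groups 0 of 11920 genes were called by edgeR's quasi-likelihood test, 346 (2.90%) had an unadjusted p under 0.05, and DESeq2 called 3. For the 4 genes in the order given above, the log2 difference of CONT SCI + Tiny from CONT SCI + Large was 0.24 (SE 0.20), 0.15 (SE 0.20), -0.37 (SE 0.23) and -0.19 (SE 0.17), none past the threshold. These values do not show that the groups were alike.

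The level of these genes was also read in each CONT SCI + Large rat, scaled with all In-Cage groups together. The ranges of the compared groups come from the scaling of the pair alone. ENSRNOG00000018287 measured 242.1, 592.4, 485.1, 535.2 and 513.8 CPM in its replicates 1 to 5. Replicate 1 lay within the No SCI + Standard range of this gene, and the other 4 lay within the CONT SCI + Tiny range. ENSRNOG00000010588 measured 24.4, 27.6, 26.4, 52.8 and 43.1 CPM, with 3 rats between the ranges of the compared groups. Replicate 4 lay above the CONT SCI + Tiny range and replicate 5 within it. CONT SCI + Large was then compared with No SCI + Standard, whose libraries are shared with the comparison above. The log2 fold change was 0.90 for each of these genes. It was past the threshold for neither (edgeR adjusted p = 0.0642 for ENSRNOG00000010588 and 0.0686 for ENSRNOG00000018287). Of the lower genes, ENSRNOG00000019996 measured 32.9, 25.1, 26.1, 10.8 and 22 CPM in CONT SCI + Large. ENSRNOG00000009152 measured 109.9, 70.7, 74.1, 48.5 and 74.8 CPM. Their log2 fold changes against No SCI + Standard were -0.92 and -0.68, also not past the threshold (edgeR adjusted p = 0.0807 and 0.0761).

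The SCI + Exercise set holds the same contusion with cage size held constant, with 4 CONT SCI and 4 No SCI rats, all in tiny cages. It shares no library with the pair. Of 12482 genes 1 (0.00801%) was called by edgeR, and for 561 (4.49%) the unadjusted p was below 0.05. DESeq2 called 68, and edgeR with the replicate number as a block called 13. With 4 rats per group the comparison holds fewer rats than the In-Cage pair, and a low count does not show that the groups were alike. The log2 fold change of CONT SCI over No SCI was -0.17 (SE 0.17) for ENSRNOG00000010588, -0.11 (SE 0.26) for ENSRNOG00000018287, 0.16 (SE 0.16) for ENSRNOG00000019996 and 0.07 (SE 0.19) for ENSRNOG00000009152, with an edgeR adjusted p of 0.998 for each.

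The change between injured and uninjured rats was then compared between the sets by a test of the difference itself. It was called for 25 of 12571 genes (0.199%, 14 with the higher change in the In-Cage pair and 11 with the lower), and the unadjusted p was below 0.05 for 3163 (25.2%). For ENSRNOG00000010588 the difference was 1.33 (SE 0.22, edgeR adjusted p = 0.0259) and for ENSRNOG00000019996 -1.43 (SE 0.26, adjusted p = 0.0435). For ENSRNOG00000018287 it was 1.18 (SE 0.30, edgeR adjusted p = 0.0725) and for ENSRNOG00000009152 -0.92 (SE 0.23, adjusted p = 0.069). All of these named genes were chosen for a small p in the In-Cage pair, whose libraries also enter the test of the difference. That choice favours a large difference, so their p values are no independent test. The count of 25 ran from 1 without Exercise set CONT SCI replicate 3 to 2010 without Exercise set No SCI replicate 2.

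Of the 644 genes called higher in CONT SCI + Tiny, 164 (25.5% ± 24) were higher in the CONT SCI rats of the Exercise set, with a median log2 fold change of -0.09. The ± is a jackknife SE over the Exercise set rats with the gene list fixed, so it leaves out the In-Cage rats that chose the list. Of the 833 called lower and measured there, 625 (75% ± 35.2) were higher, with a median of 0.09. Over all genes the share was 49.9%, so neither list departed from it by more than about 1 standard error. Without Exercise set No SCI replicate 4 the shares were 44.7% and 43.2%.

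The mean log2 CPM of the higher genes minus that of the lower genes places each rat by the called genes, as a description on the rats that chose them. It ran from 0.06 to 0.71 (median 0.32) in CONT SCI + Tiny and from -1.77 to -0.41 (median -1.02) in No SCI + Standard. In CONT SCI + Large it ran from -0.76 to 0.99 (median 0.11). In the Exercise set, scaled separately, it ran from 0.11 to 1.30 (median 0.71) in No SCI and from 0.26 to 0.70 (median 0.51) in CONT SCI, so these ranges overlapped and the uninjured rats included the highest value.

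**Figure D5:**
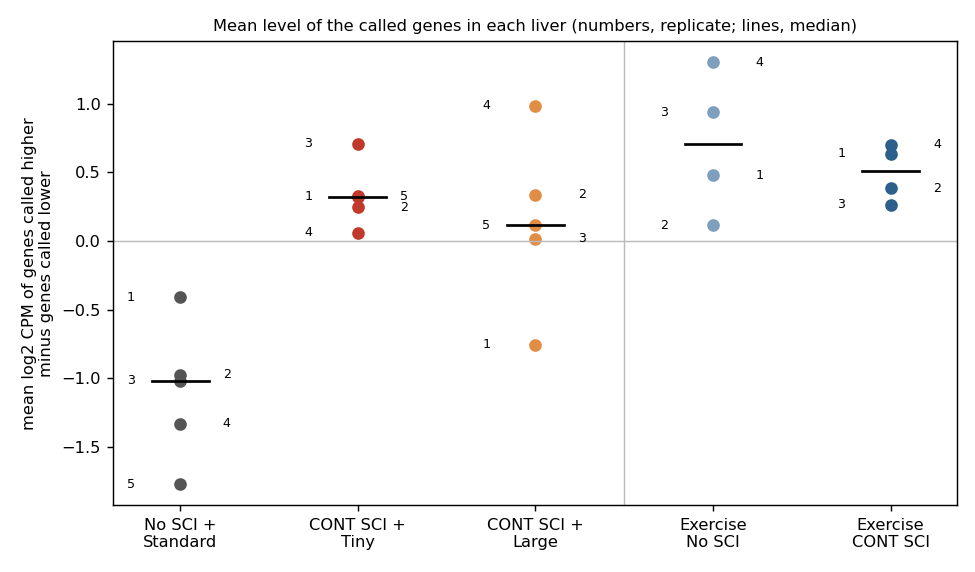
Mean log2 CPM of the 644 genes called higher minus that of the 835 called lower (vertical axis), 1 point per rat with its replicate number, and the median as a line. In-Cage groups are left of the grey line and Exercise set groups, scaled separately, right of it, where No SCI (0.11 to 1.30) and CONT SCI (0.26 to 0.70) overlap.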

How the data were processed

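Poly(A) RNA from liver was sequenced by the authors, aligned with STAR (Rn6 build) and assigned to Ensembl genes other than mitochondrial ones with HTSeq. The authors deposited the resulting raw counts, which are not normalized. Depth was 20066978 to 25130252 counts per library, and all 20 pairs of libraries of one group differed beyond sampling noise (reduced chi-square 34.4 to 97.3), so none was treated as a library deposited more than once. No gene names accompany the identifiers, and the RefSeq table used here (47357 genes) has an empty Ensembl column, so no match was possible. Counts of gene lists, cell type marker levels and promoter sequences were therefore not analysed here.

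Groups came from sample titles. The test was the robust quasi-likelihood F-test of edgeR 4.0.16 (glmQLFit, glmQLFTest) under R 4.3.3, with TMM factors, on the 11859 genes that filterByExpr kept (min.count 10, min.total.count 15), Benjamini-Hochberg adjustment and a threshold of 0.05. Standard errors are the fold change divided by the square root of F. Log2 CPM used a prior count of 2. Other pairs of groups were fitted on their own samples, and the difference between sets on its 4 groups. Tested on simulated data of 5 rats against 5 with 200 changed genes, edgeR recovered 68% of log2 changes of 1 and 94% of log2 changes of 2, with 9 unchanged genes called. Each gene was simulated independently of the others, without variation that a rat's genes share. Of the 1479 real calls, 12.6% changed by more than 2-fold. The simulated rates therefore do not measure recovery or false calls in the livers. Alternatives were DESeq2 1.42.0, limma 3.58.1 voom with sample weights, RLE normalization, no filter, 3 groups in one fit, the replicate block, glmTreat and each rat left out. The rule for named genes asked for a gene symbol. As none had one, the first 2 genes per direction by p among called genes without overlap and with a mean count of 100 or more were named. The comparison, lists and tests were chosen with earlier results of these data known.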

Additional observations from a re-analysis of the deposited data

Results flagged for a closer look

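ENSRNOG00000010588 had 1 rat apart from its group in the Exercise set, where CONT SCI replicate 2 measured 60.5 CPM and the other 3 rats 42.9 to 44.7 CPM. This was 1 of 41 groups tested for a highest or lowest value that stands apart, and chance gives about 1 in 20.

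The change of ENSRNOG00000010588 between injured and uninjured rats was higher by a log2 of 1.33 in the In-Cage pair than in the Exercise set pair (edgeR quasi-likelihood test, adjusted p = 0.0259). That of ENSRNOG00000019996 differed by -1.43 (adjusted p = 0.0435). The former was past the threshold in 15 of 22 alternatives and the latter in 12 of 22. The 25 genes whose change differed between the pairs include both. Both were chosen for a small p in the In-Cage pair, which favours a large difference. The pairs differ in the cage of the uninjured rats, standard in 1 set and tiny in the other, and in the set itself, so these cannot be told apart.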

How the results depend on the processing

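The count of 1479 called genes was 1463 with RLE normalization, 1362 without a filter and 1670 with the replicate block, and moved further to 2547 with DESeq2 (1474 of the 1479 among them), 2736 with limma voom and sample weights (1436 among them), 899 with 3 groups in one fit (861 among them), 516 beyond 1.1-fold and 5 beyond 1.2-fold (the fold tests were chosen after seeing the data). It ran from 15 to 2998 with each rat left out. Lower genes made up 64.8% of the calls with 3 groups in one fit, 49.3% with the block, 50.4% with voom and 51.9% with DESeq2. The 13 genes called without any 1 rat became 173 without a filter, 959 with DESeq2, 466 with voom, 0 with 3 groups in one fit and 0 with the replicate block. Refits with the block also lose the use of the rat that shares the left-out rat's number. The cause of these shifts was not tested. Replicate numbers did not pair the samples (correlations of -0.116 to 0.0858, and no rat closest to its own number), and under the block 1249 of the 1479 genes were called. The separation of the groups stayed past its threshold in the 13 alternatives run (26.5% to 36.2% with each rat left out, 25.2% on the 500 most variable genes). So did the 4 genes given by identifier in 16 alternatives each, which do not include the tests beyond 1.1-fold and 1.2-fold. These 4 genes were chosen for a small p in the same rats, so this is no independent test of them.

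The 25 genes that differed between sets became 789 with DESeq2 and 1 to 2010 with each rat left out. CONT SCI + Tiny against CONT SCI + Large gave 3 with DESeq2 and 0 to 1 with each rat left out. The Exercise set pair gave 13 with the replicate block, 68 with DESeq2 and 1 to 9 with each rat left out. The shares of called higher and lower genes that were higher in that set ran from 13.8% to 44.7% and from 43.2% to 84.4%. The alternatives listed for gene list counts and cell type marker levels were not run, since no table used here pairs the identifiers with symbols. The median standard error was largest, 0.29, in the least abundant of the 5 classes of genes, and the part of depth in it was not tested.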
